A study of Caenorhabditis elegans with 4 samples.

Results

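The miR-58 family was followed through ALG-1 and ALG-2 co-immunoprecipitations (co-IPs) from day 5 adult *C. elegans*, together with the opposite arm of the *mir-80* hairpin. The members were taken by name from a table of 66 mature miRNAs. They are miR-58a-3p, miR-80-3p, miR-81-3p and miR-82-3p, which were also summed as the family, and miR-80-5p, which was kept out of the sum. All 5 were found, so they account for 5 of the 66 listed miRNAs. The ALG-1 libraries came from strain PQ530 (FLAG::GFP::ALG-1) and the ALG-2 libraries from strain PQ582 (FLAG::RFP::ALG-2), with each tag placed on the endogenous gene by genome editing. Whole synchronized animals were grown at 20°C, eggs and larvae were removed, and an anti-FLAG antibody was used for both proteins. The co-IP methods name no drug or RNAi treatment and do not name the food. Each strain contributed 2 libraries, called A and B here because the table names the Argonaute of each column but not its replicate number. Values are RPM, the reads of a miRNA per 1000000 reads of its library. The listed miRNAs held 99.3% to 99.5% of these reads, so shares of a library are close to shares of the listed miRNA reads. Whether the total included reads of other small RNAs is not given in the sources used here. Input RNA and untagged animals were not analysed here, so a difference between the co-IPs does not separate loading of a miRNA from where or how strongly each Argonaute is expressed, and fewer cells of a type cannot be told apart from less miRNA per cell.

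The family is the nematode counterpart of bantam, a *Drosophila* miRNA that promotes growth and restrains cell death. An Argonaute finds its target RNAs mainly through the seed of the bound miRNA, a short stretch near its 5′ end, and the family members share their seed and can therefore act on overlapping targets. In *C. elegans* they are among the most abundant miRNAs, loss of the whole family affects body size, movement, egg laying and dauer formation, and components of TGF-β signaling are among the described targets. miR-80 has in addition been tied to dietary restriction, and its loss to a longer lifespan. Every miRNA hairpin is cut into a duplex of a 5p and a 3p strand, of which one is usually kept by the Argonaute as the guide while the other is discarded as the passenger. For this family the 3p strand is the guide, and miR-80-5p is the passenger strand of *mir-80*.

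The genes lie at separate sites apart from one pair (RefSeq annotation, WBcel235). *mir-82* (WBGene00003310) occupies chromosome X, 2435258 to 2435354, and *mir-81* (WBGene00003309) chromosome X, 2431072 to 2431179. They are separated by 4078 bases, and both fall within the span of the protein-coding gene *gid-2*. *mir-58a* (WBGene00003286, *mir-58.1* in RefSeq) is found at chromosome IV, 3233254 to 3233350, within the span of *phkb-1* and overlapping the non-coding RNA *Y67D8A.6*. *mir-80* (WBGene00003308) is found at chromosome III, 8865270 to 8865367, where the non-coding RNA *K01F9.6* covers nearly the same bases. The mature sequences are closely related, in particular those of miR-81-3p and miR-82-3p. How the quantification treated reads shared by such near-identical members is not given in the sources used here. Their separate values are therefore uncertain, and so is the family sum if shared reads were counted for each member. In every library miR-44-3p had the same RPM as miR-45-3p. Whether shared reads were counted for both was not tested.

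Reads per library, in the total used for RPM, were read from the step size of the RPM values. These were whole numbers of reads for all 66 miRNAs in every library within 0.001 read. With ALG-1, library A held 11625117 reads and library B 6428905, while with ALG-2, library A held 12401622 reads and library B 25703472. Counting error was thus at most 0.203% for a family member and 2.23% for miR-80-5p, whose lowest value rested on 2012 reads. ALG-2 library A stood apart from the other 3 libraries in the family, and results that rest on it are given with and without it. The ALG-2 libraries also differed more from each other than the ALG-1 libraries, with a median absolute log2 difference over all 66 miRNAs of 0.90 between ALG-2 libraries and 0.34 between ALG-1 libraries.

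The family took nearly equal shares of 3 libraries and a much smaller share of the remaining one. It made up 46.4% and 49.2% of reads in ALG-1 libraries A and B, against 15.0% and 46.6% in ALG-2 libraries A and B. The 95% Wilson intervals reached at most 0.0386 percentage points to either side and cover counting error only. The ALG-1 values therefore lay close together, while one ALG-2 library fell between them and the other lay far below. The average was 47.8% ± 1.93 with ALG-1 and 30.8% ± 22.3 with ALG-2 (SD, n = 2 each). The groups overlapped. The log2 ratio of the sums, ALG-1 over ALG-2, was 0.85 ± 0.82 (SE). It was 0.04 without ALG-2 library A and 1.67 without ALG-2 library B, so the family difference between the Argonautes rested on which ALG-2 library was used.

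**Figure D1:**
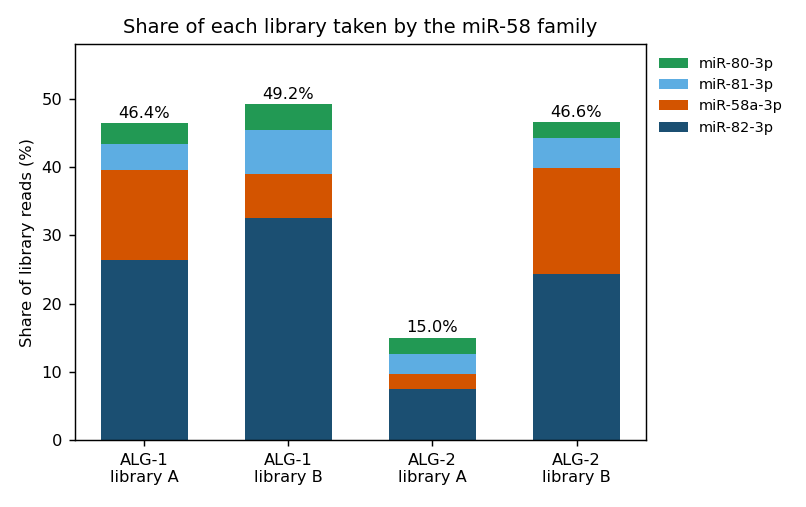
Share of library reads (y axis, percent) taken by the 4 family members, stacked, in each of the 4 co-IP libraries (x axis). The bars reach 46.4% and 49.2% for ALG-1, against 15.0% (library A) and 46.6% (library B) for ALG-2.

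The family filled close to as many reads as everything else in 3 libraries. RPM values share a fixed total, so a lower family share and higher values of other miRNAs cannot be told apart. The family sum was 0.878 and 0.978 times the reads of the miRNAs outside the 5 members in ALG-1 libraries A and B, against 0.178 and 0.882 times in ALG-2 libraries A and B. In ALG-2 library A, a larger part of the reads therefore came from miRNAs outside the family. Measured per 1000000 reads outside the members, the log2 ratio of the family sums was 1.22, and the median log2 ratio of all 66 miRNAs became 0.50, whereas it was 0.13 as deposited.

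miR-82-3p was the leading member everywhere. It had 263234 and 325419 RPM in ALG-1 libraries A and B, against 74702 and 243645 RPM in ALG-2 libraries A and B. It ranked 1 of the 66 miRNAs in all libraries except ALG-2 library A, in which it ranked 3. Both ALG-1 values lay above both ALG-2 values, but the 4 ratios obtained by setting each ALG-1 library against each ALG-2 library spread from 1.08 to 4.36. The limma log2 ratio was 1.12 with a 95% interval from -0.35 to 2.58 (adjusted p = 0.315). It became 0.26 without ALG-2 library A and 1.97 without ALG-2 library B (adjusted p = 0.0504 by limma).

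miR-58a-3p, the founding member, was the most variable. It had 131857 and 63636 RPM in ALG-1 libraries A and B, against 23023 and 154369 RPM in ALG-2 libraries A and B. The ALG-2 libraries thus held both the lowest and the highest value, 6.70-fold apart, and the 2 ALG-1 libraries were themselves 2.07-fold apart. By abundance it ranked 2 and 4 in the ALG-1 libraries A and B, against 15 and 2 in the ALG-2 libraries A and B. Its log2 ratio was 0.62 with an interval from -1.64 to 2.88 (limma adjusted p = 0.757), and the direction turned to -0.75 without ALG-2 library A.

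miR-81-3p, encoded beside *mir-82*, was several times rarer than its neighbour. It had 38955 and 65028 RPM in ALG-1 libraries A and B, against 28921 and 43865 RPM in ALG-2 libraries A and B, and the groups overlapped. The log2 ratio of 0.50 had an interval from -0.69 to 1.69 (limma adjusted p = 0.569) and moved with each library left out. It was 0.87 or 0.13 when ALG-1 library A or B was dropped, and 0.20 or 0.80 when ALG-2 library A or B was dropped. There were 6.76 and 5.00 reads of miR-82-3p for each read of miR-81-3p in ALG-1 libraries A and B, against 2.58 and 5.55 in ALG-2 libraries A and B. The ratio of the neighbouring genes' products was therefore similar in 3 libraries and lower in ALG-2 library A.

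miR-80-3p varied least in RPM among the members. It had 30360 and 37671 RPM in ALG-1 libraries A and B, against 23635 and 23652 RPM in ALG-2 libraries A and B. On the RPM scale no listed miRNA differed less between the ALG-2 libraries, which were 6.70-fold apart for miR-58a-3p. Per 1000000 reads outside the 5 members, miR-80-3p had 28050 and 44791 in ALG-2 libraries A and B, a 1.60-fold difference, so the near-identical values belong to the deposited scale. Both ALG-1 values exceeded both ALG-2 values, and the log2 ratio was 0.52, with an interval from -0.53 to 1.56 (limma adjusted p = 0.511). The ratio stayed at 0.52 without ALG-2 library A. With nearly equal ALG-2 values on the deposited scale it could not move, so this is no separate sign of stability.

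**Figure D2:**
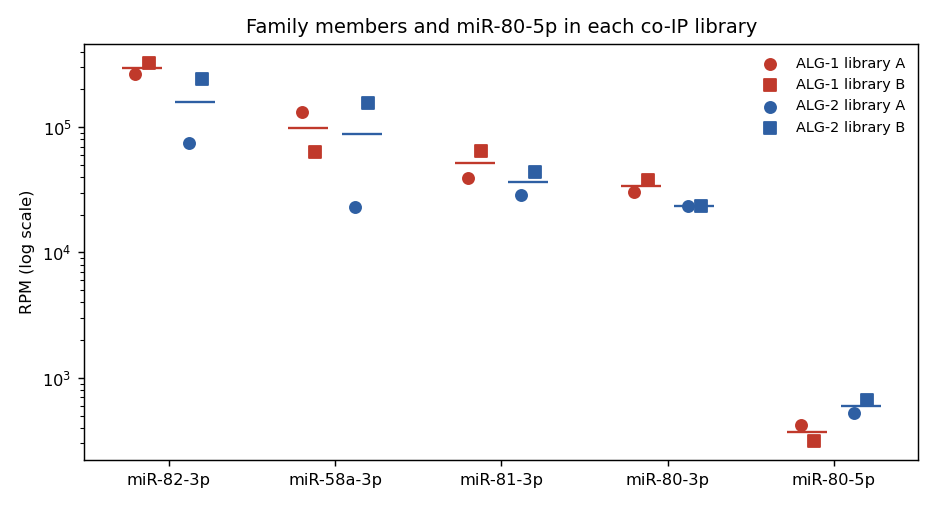
RPM (y axis, log scale) of the 4 family members and miR-80-5p (x axis) in each library, with ALG-1 in red to the left and ALG-2 in blue to the right, circles for library A, squares for library B and bars for the mean. miR-80-3p points of ALG-2 coincide at 23635 and 23652 RPM, while those of miR-58a-3p are 6.70-fold apart.

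The fixed criterion for enrichment asked each of these 4 ratios to exceed 1.5 in one direction, which applies the fold threshold of the study to every possible pairing of libraries. By this criterion 0 of the 4 family members passed toward ALG-1, where 13.6% of the 66 miRNAs passed, and 0 passed toward ALG-2, where 16.7% passed. The groups did not overlap for 2 of the 4 members, miR-80-3p and miR-82-3p, both higher with ALG-1, beside 27.3% of all miRNAs. The 4 ratios of miR-80-3p ran from 1.28 to 1.59, on either side of the threshold. All 4 members had a mean log2 ratio above 0, with a median of 0.57, and 36 of the 66 miRNAs did so, with a median of 0.13. By limma, 0 of the 4 passed an adjusted p of 0.05 and 0 had an unadjusted p below 0.05. Over the table, 0% of miRNAs were called higher with ALG-1 and 1.52% higher with ALG-2 at the adjusted threshold, and 10.6% and 15.2% without adjustment. Leaving out ALG-1 library A let miR-80-3p pass the fold criterion toward ALG-1, in a setting in which 18.2% of the 66 miRNAs did so. Leaving out ALG-2 library B let miR-58a-3p and miR-82-3p pass toward ALG-1, where 27.3% did so.

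**Figure D3:**
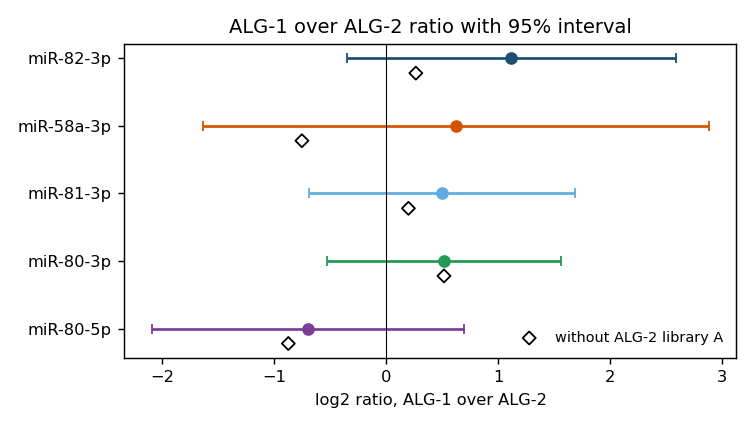
Limma log2 ratio of ALG-1 over ALG-2 (x axis) for each member (y axis), with points for all 4 libraries, lines for the 95% interval and diamonds for the value without ALG-2 library A. All intervals include 0, and the diamond of miR-58a-3p lies on the other side of 0, at -0.75.

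The make-up of the family was then compared within each library, which does not depend on how libraries are scaled. miR-82-3p formed 56.7% and 66.2% of family reads in ALG-1 libraries A and B, against 49.7% and 52.3% in ALG-2 libraries A and B. It was the only member whose share did not overlap between the groups, at 61.4% ± 6.71 with ALG-1 and 51.0% ± 1.86 with ALG-2 (SD, n = 2 each). Separation of this kind was common with 2 libraries per group. By RPM, 27.3% of the 66 miRNAs were separated toward ALG-1 and 25.8% toward ALG-2. miR-58a-3p formed 28.4% and 12.9% of family reads in ALG-1 libraries A and B, against 15.3% and 33.2% in ALG-2 libraries A and B. ALG-1 library B and ALG-2 library A were therefore low in this member relative to its relatives, one library of each Argonaute. miR-80-3p contributed 6.54% and 7.66% with ALG-1, against 15.7% and 5.08% with ALG-2. miR-81-3p contributed 8.39% and 13.2% with ALG-1, against 19.2% and 9.42% with ALG-2. Both miR-80-3p and miR-81-3p thus had their highest share of the family in ALG-2 library A, where the family was smallest.

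Differences between libraries of the same Argonaute showed how unequally the members varied. Between the ALG-2 libraries, library B over library A, the log2 differences were 2.75 for miR-58a-3p, 1.71 for miR-82-3p, 0.60 for miR-81-3p and 0.0010 for miR-80-3p. By sign alone, values in library B were higher for all 4 members and for 31 of the 66 miRNAs. The 2 values of miR-80-3p were, however, equal within counting error (0.185% in library A and 0.128% in library B). For miR-58a-3p this was the largest increase of any listed miRNA toward library B. Between the ALG-1 libraries, library B over library A, the log2 differences were -1.05 for miR-58a-3p, 0.74 for miR-81-3p, 0.31 for miR-80-3p and 0.31 for miR-82-3p. miR-58a-3p was thus lower in the ALG-1 library in which its 3 relatives were higher.

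**Figure D4:**
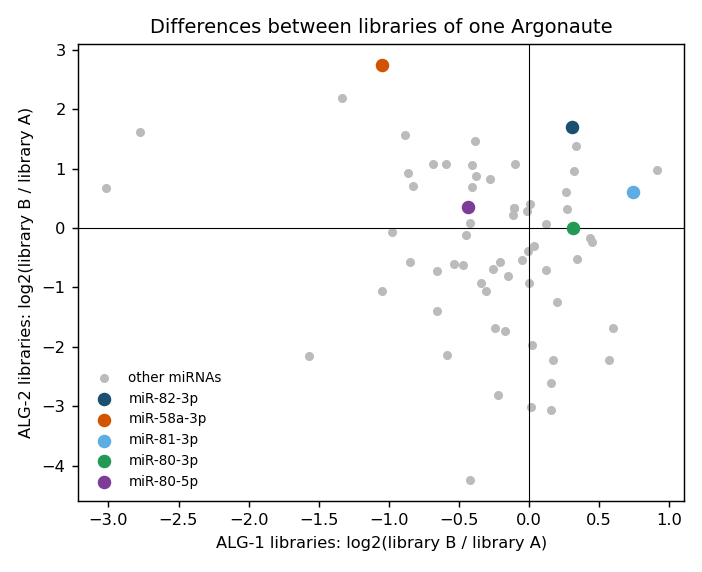
Log2 difference between library B and library A for ALG-1 (x axis) and for ALG-2 (y axis), with one point per miRNA, the 5 members in colour and the other miRNAs in grey. miR-58a-3p has the highest point on the y axis, at 2.75, and miR-80-3p lies at 0.0010.

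For the opposite arm of *mir-80*, the order of the groups was the other way round. miR-80-5p had 423 and 313 RPM in ALG-1 libraries A and B, against 524 and 668 RPM in ALG-2 libraries A and B, and its rank lay between 50 and 58 of the 66 miRNAs. Both ALG-1 values lay below both ALG-2 values, with ALG-2 values 1.24 to 2.13 times those of ALG-1. Among all miRNAs, 25.8% were separated in this direction. The log2 ratio was -0.70 with an interval from -2.09 to 0.69 (limma adjusted p = 0.511). miR-80-5p did not meet the fold criterion with all 4 ratios, but met it toward ALG-2 with crossed pairs, where 22.7% of the 66 miRNAs did so, and without ALG-1 library A or without ALG-2 library A, where 25.8% did so in either case. The difference depended on the scale. Per 1000000 reads outside the 5 members, miR-80-5p had 800.5 and 622.4 with ALG-1, against 622.0 and 1265 with ALG-2, so that the groups overlapped. The limma log2 ratio was -0.33 on that scale. Other scaling moved it the other way, to -0.75 with median-of-ratios scaling and -0.81 with TMM scaling.

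The 3p to 5p ratio is taken within a library and is free of that scaling. There were 71.7 and 120 reads of miR-80-3p for each read of miR-80-5p in ALG-1 libraries A and B, against 45.1 and 35.4 in ALG-2 libraries A and B. The exact 95% counting intervals were 69.7 to 73.8 and 115 to 126 with ALG-1, and 44.0 to 46.2 and 34.9 to 36.0 with ALG-2. These intervals cover counting error only, and libraries of the same Argonaute also differed beyond them, so they do not bear on a difference between the Argonautes. Both ALG-1 ratios were higher than both ALG-2 ratios. miR-80-5p correspondingly made up 1.37% and 0.824% of the *mir-80* arm reads with ALG-1, against 2.17% and 2.75% with ALG-2. The guide strand thus greatly outnumbered the passenger strand in both co-IPs. Ratios averaged 96.1 ± 34.4 with ALG-1 and 40.3 ± 6.85 with ALG-2 (SD, n = 2 each). On the log2 scale the ALG-1 mean exceeded the ALG-2 mean by 1.22 ± 0.41 (SE), and the 4 ratios of ratios lay between 1.59 and 3.40. An exact two-sided permutation test gave p = 0.333, the smallest value that 2 libraries against 2 can give, so the difference could not reach significance by this test. The log2 difference was 1.39 without ALG-2 library A, and it lay between 0.84 and 1.59 when each library was left out. The arms differ in sequence, and adapter ligation depends on sequence, so the ratios compare libraries and are not molar amounts.

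**Figure D5:**
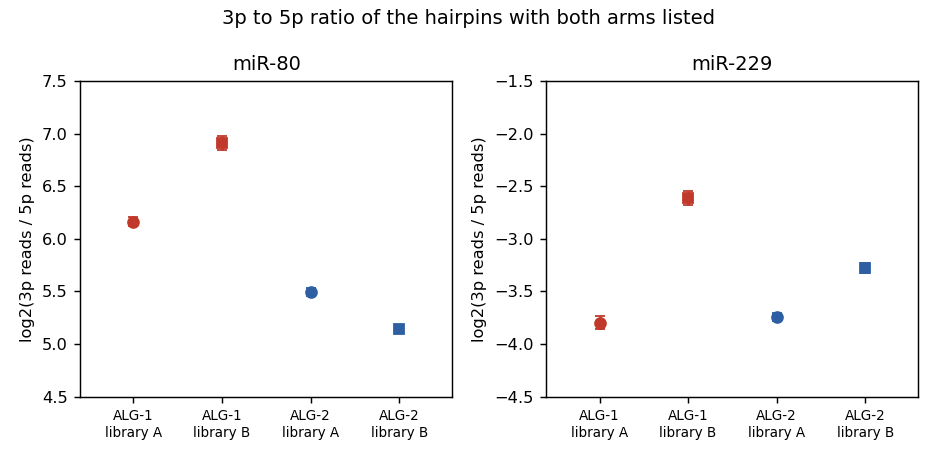
Log2 of 3p reads over 5p reads (y axes) in each library (x axes) for *mir-80* on the left and *mir-229* on the right, with bars for exact 95% counting intervals, mostly smaller than the symbols. Both ALG-1 points lie above both ALG-2 points for *mir-80* and overlap with them for *mir-229*.

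One other hairpin, *mir-229*, had both arms listed, with the 5p arm as the abundant one. Its 3p to 5p ratio was 0.0720 and 0.164 in ALG-1 libraries A and B, against 0.0747 and 0.103 in ALG-2 libraries A and B. The groups overlapped, and the log2 difference was 0.31 ± 0.64 (SE, exact two-sided permutation p = 1). With 2 hairpins, it was not tested whether *mir-80* differs from hairpins in general.

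Likeness of pattern was measured as the Euclidean distance between log2(RPM + 1) values of the 4 libraries, each centred on its own mean, where a smaller distance is a closer match. Distances among the family members ranged from 0.521, between miR-80-3p and miR-81-3p, to 2.17, between miR-58a-3p and miR-80-3p. The neighbours miR-81-3p and miR-82-3p were 1.04 apart. The following matches were sought among the 61 miRNAs outside the 5 members. These are far more candidates than a member has relatives, so a close match is easier to find among them. The closest to miR-82-3p were miR-54-3p (0.270) and miR-85-3p (0.549). The closest to miR-58a-3p were miR-59-3p (1.14) and miR-85-3p (1.23), which were closer than any of its relatives. The closest to miR-80-3p outside the members were miR-84-5p (0.485) and then miR-44-3p and miR-45-3p, which carry identical values (0.540), and its relative miR-81-3p lay between them at 0.521. For miR-81-3p the closest outside the members were again miR-44-3p and miR-45-3p (0.728), farther than miR-80-3p. The closest to miR-80-5p were miR-86-5p (0.331) and miR-66-5p (0.360), and its own guide strand lay at 1.35. With 4 libraries these distances only describe the pattern.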

How the data were processed

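Small RNAs bound to ALG-1 or ALG-2 were sequenced from day 5 adults, with TruSeq small RNA libraries run on an Illumina HiSeq. The authors removed adapters (the submitters' processing notes name cutadapt), mapped reads to the WS261 genome with miRDeep2 and quantified mature miRNAs on miRBase release 21. The versions of both tools are not given in the sources used here. The deposited values are RPM, calculated by the authors as reads per 1000000 in each library, and the listed miRNAs held 99.3% to 99.5% of that total. No listed miRNA summed to less than 1003 RPM, and the study left out miRNAs under 1000 reads.

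Columns were grouped by the Argonaute in their names. Library depth was recovered from the step of the RPM values and used for counting errors only, and no count model was fitted. Differences were tested with limma 3.58.1 (R 4.3.3) on log2(RPM + 1) with a variance trend, over all 66 miRNAs, with Benjamini-Hochberg adjustment and a threshold of 0.05. Values, intervals and exact tests were computed in Python 3.11.15 with scipy 1.17.1. The limma step was run on simulated data with large planted changes and the same spread in both groups. The real ALG-2 libraries spread more, so that run does not gauge the power of limma here. Limma p-values and intervals draw on the spread between 2 libraries per group, with each variance pulled toward a trend over all 66 miRNAs. They therefore do not measure the spread of a single member alone. The members and lists were chosen with earlier results of these data known. Named besides the members were hairpins with both arms listed and, for each member, the 2 miRNAs with the closest pattern (tied pairs together). Alternatives covered scaling, pseudocounts, filters, pairing and leaving out each library.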

Additional observations from a re-analysis of the deposited data

How the results depend on the processing

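No family member passed the limma threshold under any of the 13 alternatives run. The limma log2 ratios of miR-80-3p, miR-81-3p and miR-82-3p stayed positive in all 13, and that of miR-80-5p stayed negative in the 12 that kept it, since the minimum of 4000 summed RPM removed it. miR-58a-3p turned to -0.75 without ALG-2 library A (adjusted p = 0.494) and reached 1.99 without ALG-2 library B. Its adjusted p over the alternatives ranged from 0.158 to 0.991. The lowest adjusted p of any member was 0.0504, for miR-82-3p without ALG-2 library B (log2 ratio 1.97). Counts over the table moved more. With ALG-2, limma called 1 miRNA as reported, 3 without the variance trend, 4 with median-of-ratios scaling, 4 with TMM scaling, and 0 to 4 when each library was left out. What moved these counts was not tested. Each fit without a library left a single library on one side, which was assumed to vary like the other group.

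The columns carry no replicate number. The replicate block gave 0 miRNAs with ALG-1 and 1 with ALG-2 for pairs by consecutive column numbers, and 2 and 5 for crossed pairs. The crossed fit pooled the variance over all miRNAs, with 66 degrees of freedom against 4.43 for consecutive pairs. The counts therefore do not compare the pairings alone. Deviations from the group means correlated at -0.21 for pairs by consecutive numbers. With 2 libraries per group, crossed pairs must give the same value with the opposite sign, 0.21. The block changed the call of no member.

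The fold criterion gave 9 miRNAs with ALG-1 and 11 with ALG-2. On the scale of reads outside the members it called 14 for ALG-1 and 9 for ALG-2. A minimum of 4000 summed RPM kept 46 miRNAs. Of these, 5 passed with ALG-1 (10.9%, beside 13.6% of all 66) and 8 with ALG-2 (17.4%, beside 16.7%). Leaving out each library gave 12 to 18 with ALG-1 and 11 to 18 with ALG-2, because fewer ratios must pass. Over all 66 miRNAs the log2 ratio had a median of 0.08 with median-of-ratios scaling and 0.02 with TMM scaling, beside family medians of 0.52 and 0.46. Family members passing toward ALG-1 were 0 as reported and 0 to 2 when each library was left out. The log2 ratio of the family sum ranged from 0.04 to 1.67 when each library was left out, from 0.50 (without miR-82-3p) to 0.92 when each member was left out, and was 0.63 as a ratio of group means and 0.74 with TMM scaling. The log2 difference of the miR-80 arm ratio was 1.22 from summed RPM and 1.20 with a pseudocount of 10. Counting error was at most 2.23% for a member in any library. An effect of depth on the counts over the table was not tested.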
